A study of Mus musculus with 10 samples.

Results

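The cytokines and receptors examined here sustain lymphocytes: interleukin 15 and its receptor chain (Il15, Il15ra), interleukin 7 (Il7), the TNF-family B cell factors BAFF (Tnfsf13b) and APRIL (Tnfsf13) with their receptor TACI (Tnfrsf13b), and the lymphotoxins (Lta, Ltb) with the lymphotoxin β receptor (Ltbr). They were chosen by name as the genes matched by a probe that carries 1 gene symbol, and 8 of the 9 were measured in this way, out of 19938 genes on the arrays. Tnfsf13 was not analysed here, because its probe also carries Tnfsf12 and Tnfsfm13. The tissue was MC38, a transplantable colon carcinoma of the mouse, grown under the skin of C57BL/6 hosts and profiled with whole-transcript arrays of total RNA. The 5 CpG1826 tumors (mice 50, 58, 183, 189 and 595) had been injected at about 40 mm2 with CpG1826, at a dose of 50 µg carried in 50 µL PBS, and were frozen 6 h later. CpG1826 is a short synthetic DNA whose unmethylated CpG dinucleotides are sensed by the receptor TLR9. The 5 PBS tumors (mice 26, 29, 482, 592 and 661) were the controls, and their injection schedule was taken to be the same, since the treatment note describes CpG1826 only. All 10 tumors share the line, the strain and the site, and the age and sex of the mice were not used here.

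IL-15 is a cytokine that keeps natural killer cells and memory CD8 T cells alive. It is mostly held on the surface of the producing cell by the IL-15 receptor α chain, which presents it to lymphocytes carrying the β chain (Il2rb) and the common γ chain. IL-7 signals through its own receptor chain (Il7r) and the common γ chain in naive lymphocytes, and is made mainly by stromal and epithelial cells. BAFF and APRIL, made mainly by myeloid cells, support B cells and plasma cells through BAFF-R, TACI and BCMA. Lymphotoxin α and β form a membrane complex that engages the lymphotoxin β receptor on stromal and myeloid cells and drives the noncanonical NF-κB pathway and lymphoid tissue chemokines.

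Of the 8 measured genes, 2 rose (Il15 and Il15ra), 1 fell (Tnfsf13b) and 5 did not pass the test. The test was limma with Benjamini-Hochberg adjustment over all 19938 genes at a threshold of 0.05. Over all genes, 3.56% rose and 1.10% fell in CpG1826 tumors, and 4.66% were called in either direction. An unadjusted limma p under 0.05 was found for 3 of the 8 measured genes and for 3101 of the 19938 genes. The CpG1826 and PBS values did not overlap for 3 of the 8 genes, where 6.78% of all genes had groups without overlap. The median log2 fold change of the 8 genes was -0.10, and that of all genes was -0.02.

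Promoters of 7 of the 9 genes, from 250 bases before to 50 after an annotated start, were taken from RefSeq (GRCm38.p6). No entry was found for Il15 and Il7. They were searched on both strands for an IRF motif (GAAA, any 2 bases, then GAAA), which occurs in 3.44% of 32851 such windows, for a STAT motif (TTCNNNGAA, 8.30%) and for the NF-κB consensus motif (8.46%). The window printed for Tnfsf13b is the downstream one of a pair and holds 1 IRF match, and the upstream one holds 0 matches of any of the motifs. Both windows of Il15ra hold 0 matches, and the downstream one is printed. The Ltb window holds 1 match each to the STAT and NF-κB motifs, which do not overlap. These windows are shown because the Il15ra and Tnfsf13b windows belong to the called genes with an entry, and the Ltb window is the single one among the 9 with an NF-κB match. Capitals mark motif matches, and each sequence runs 5′ to 3′ along the gene.
Il15ra, chr2:11705462-11705761, plus strand: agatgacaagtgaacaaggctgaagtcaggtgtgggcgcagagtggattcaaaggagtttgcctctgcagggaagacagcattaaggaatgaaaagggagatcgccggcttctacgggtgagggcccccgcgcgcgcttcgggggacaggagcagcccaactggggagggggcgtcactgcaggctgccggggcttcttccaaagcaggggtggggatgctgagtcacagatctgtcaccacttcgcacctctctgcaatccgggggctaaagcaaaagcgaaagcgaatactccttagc
Tnfsf13b, chr8:10006383-10006682, plus strand: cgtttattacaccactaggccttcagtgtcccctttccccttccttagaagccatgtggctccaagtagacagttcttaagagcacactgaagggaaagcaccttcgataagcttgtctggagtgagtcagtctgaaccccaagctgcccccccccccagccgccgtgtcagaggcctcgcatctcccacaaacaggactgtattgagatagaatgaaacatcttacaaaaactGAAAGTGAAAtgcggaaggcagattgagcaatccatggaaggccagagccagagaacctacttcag
Ltb, chr17:35194257-35194556, plus strand: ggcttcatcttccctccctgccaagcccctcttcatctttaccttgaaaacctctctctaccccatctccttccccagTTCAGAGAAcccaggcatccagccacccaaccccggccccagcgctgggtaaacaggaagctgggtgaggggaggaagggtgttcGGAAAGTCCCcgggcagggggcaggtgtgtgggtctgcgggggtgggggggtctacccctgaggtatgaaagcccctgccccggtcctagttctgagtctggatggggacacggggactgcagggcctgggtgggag
The Lta window holds 2 STAT matches, and those of Tnfrsf13b, Tnfsf13 and Ltbr hold 0 matches of any kind. A match describes the letters only, and whether a factor binds there was not measured. Of the called genes with an entry, Tnfsf13b, which fell, had an IRF match, and Il15ra, which rose, had 0 matches. Only exact matches to the motif letters were counted. A stretch that differs from the IRF motif by 1 letter, such as aaaagcgaaa in the printed Il15ra window, was left out. With 1 gene in each direction and no entry for Il15, a link between motif and direction was not tested.

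The medians of the 10 arrays were 6.47 to 6.53 log2 units. The PBS tumor of mouse 661 stood apart from the other PBS tumors in several lymphoid and myeloid readings, and Il15, Il15ra, Tnfsf13b, Ltb and Il2rb are also given without it. The counts of 2 survival genes that rose and 1 that fell were the same without it. Its T cell marker score, the mean log2 value of 10 measured genes, was 6.72, against 7.24 to 7.40 in the other 4 PBS tumors. Its macrophage marker score was 9.59, against 9.86 to 9.93. Genes of colon epithelium (Krt8, Krt18, Epcam, Cdx2 and Vil1) averaged 4.56 to 7.05 in CpG1826 tumors and 4.68 to 6.93 in PBS tumors, and without detection calls their presence was not decided. Of these, Epcam was higher in CpG1826 tumors, by 0.32 on the log2 scale (limma adjusted p = 0.0485), and the other 4 did not pass.

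Il15 was higher in every CpG1826 tumor than in any PBS tumor. Its log2 value was 7.80, 8.12, 8.08, 8.25 and 8.36 in CpG1826 mice 50, 58, 183, 189 and 595, against 7.05, 7.59, 7.53, 7.60 and 6.89 in PBS mice 26, 29, 482, 592 and 661. The PBS tumors split into 3 near 7.6 and 2 lower ones, mice 26 and 661, while the lowest CpG1826 tumor, mouse 50, lay above the highest PBS tumor. The means were 8.12 ± 0.21 in CpG1826 tumors and 7.33 ± 0.34 in PBS tumors (SD, n = 5 each). The difference of 0.79 ± 0.15 log2 units (SE) made Il15 1.73-fold higher (1.38 to 2.16, here and below the 95% confidence interval of the fold, limma adjusted p = 0.00696). Without PBS mouse 661 the log2 fold change was 0.67 (limma adjusted p = 0.0131). Without PBS mouse 26 it was 0.72 (limma adjusted p = 0.0261, the highest of the 10 fits with 1 mouse left out). In these bulk tumors, fewer cells of a type and less RNA per cell cannot be told apart, nor can more cells and more RNA per cell.

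Il15ra, which encodes the presenting receptor chain, rose alongside its ligand. It measured 9.50, 9.52, 9.82, 9.64 and 9.53 in CpG1826 mice 50, 58, 183, 189 and 595, against 9.18, 9.23, 9.16, 9.19 and 8.87 in PBS mice 26, 29, 482, 592 and 661. The groups did not overlap, CpG1826 mouse 183 was the highest, and PBS mouse 661 was again the lowest. The means were 9.60 ± 0.13 in CpG1826 tumors and 9.13 ± 0.15 in PBS tumors (SD, n = 5 each). The difference of 0.48 ± 0.09 log2 units (SE) made Il15ra 1.39-fold higher (1.22 to 1.58, limma adjusted p = 0.00535). The value was 0.41 without PBS mouse 661 (limma adjusted p = 0.00998). Keratinocyte scores (6.80 to 7.39 in CpG1826 tumors and 5.40 to 5.94 in PBS tumors) and neutrophil scores (5.82 to 6.30 in CpG1826 tumors and 5.20 to 5.39 in PBS tumors) differed in the same direction without overlap.

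**Figure D1:**
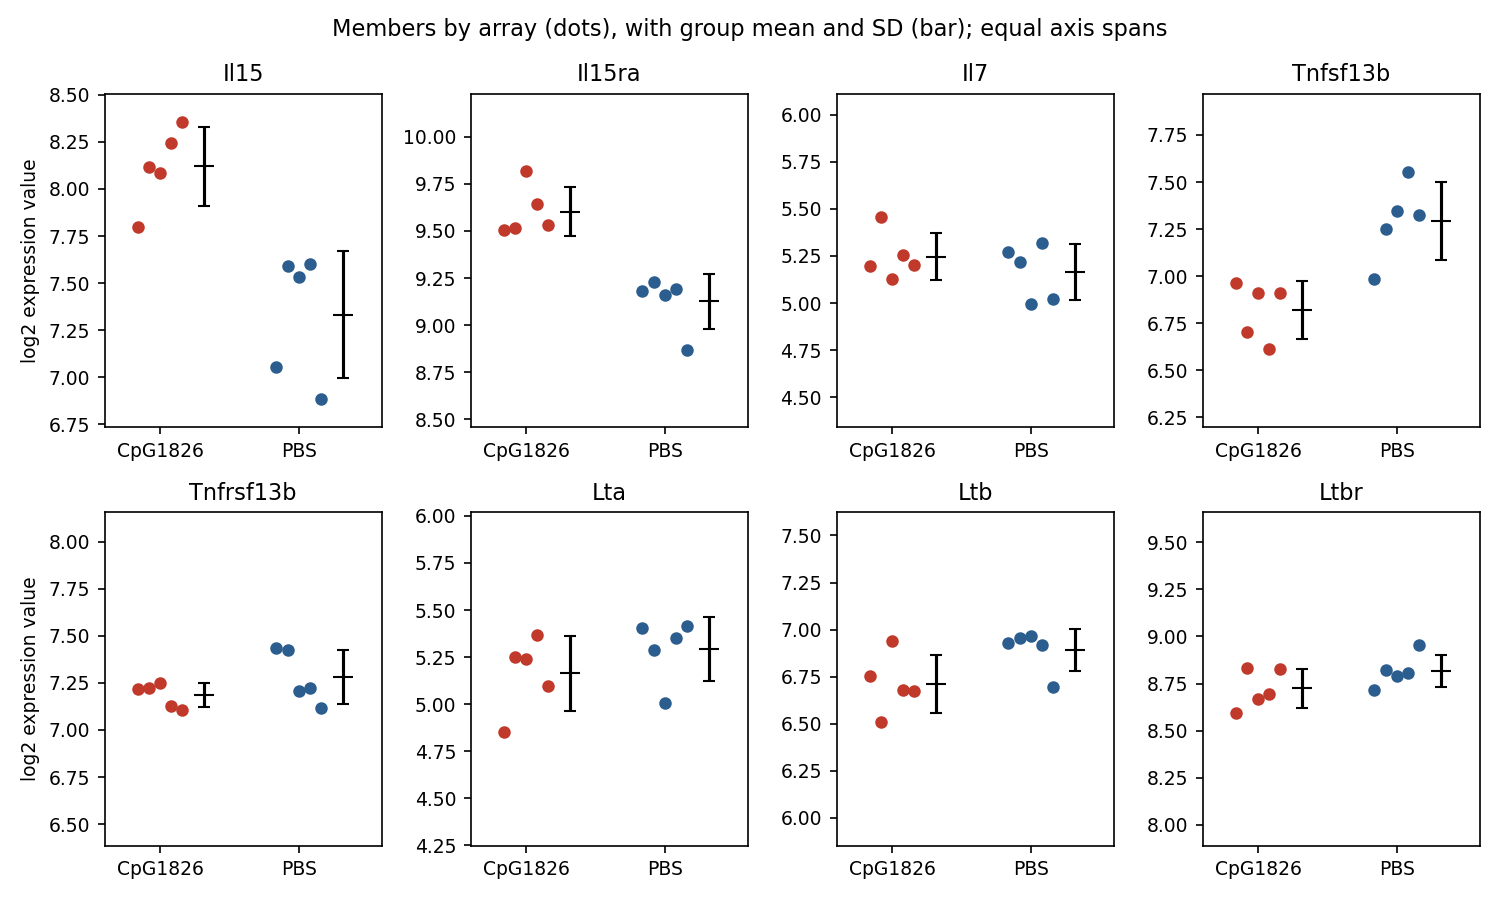
Log2 expression value (y axis, equal span in each panel) of the 8 measured genes in each array, with CpG1826 tumors (red) left of PBS tumors (blue); bars give the mean and SD of 5 arrays. Il15 and Il15ra lie higher in all CpG1826 tumors, Tnfsf13b lies lower, and the groups overlap for the other 5 genes.

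The chain through which lymphocytes read IL-15 did not pass the test. Il2rb, the shared β chain of the IL-2 and IL-15 receptors, averaged 8.53 ± 0.55 in CpG1826 tumors and 8.52 ± 0.43 in PBS tumors (SD, n = 5 each). Its log2 fold change was 0.01 (95% confidence interval -0.53 to 0.55, limma adjusted p = 0.994), an interval wide enough to hold a rise of the size seen for Il15ra. Its direction rested on single tumors: leaving out PBS mouse 661 gave a log2 fold change of -0.18, and leaving out CpG1826 mouse 50 gave 0.22. Il2rg, the common γ chain, and Jak3, the kinase attached to it, each lacked a probe with a single symbol and were not tested.

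Among the common γ chain cytokines, receptors and signal genes, 4 of 15 measured genes rose and 0 fell, with a median log2 fold change of 0.08. Il7r, the specific chain of the IL-7 receptor, changed most, with values of 8.95 to 9.82 (median 9.17) in CpG1826 tumors and 7.77 to 8.38 (median 8.12) in PBS tumors. The groups did not overlap, and Il7r was 2.26-fold higher (1.78 to 2.87, limma adjusted p = 0.000545). Il4ra, the receptor chain for IL-4 and IL-13, rose 1.89-fold (1.66 to 2.15). Il2ra, the high-affinity chain of the IL-2 receptor, rose 1.81-fold (1.41 to 2.33), with CpG1826 values of 6.88 to 7.88 above the PBS values of 6.38 to 6.78. Stat5a, a transcription factor activated by these receptors, rose 1.27-fold (1.13 to 1.43, limma adjusted p = 0.0201), a call lost without CpG1826 mouse 183 (limma adjusted p = 0.0581, the highest of the 10 fits with 1 mouse left out; the lowest was 0.0226). Beside these receptor genes, 0 of 10 T cell markers passed by limma, and 2 had an unadjusted p under 0.05, both lower. Over all genes, 3101 of 19938 had an unadjusted limma p under 0.05. Cd3e, a chain of the T cell receptor complex, had a log2 fold change of -0.35 ± 0.15 (SE, limma adjusted p = 0.267).

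Il7 itself did not pass, and its groups overlapped. It measured 5.20, 5.46, 5.13, 5.25 and 5.20 in CpG1826 mice 50, 58, 183, 189 and 595, against 5.27, 5.22, 5.00, 5.32 and 5.02 in PBS mice 26, 29, 482, 592 and 661. CpG1826 mouse 58 was the highest and PBS mouse 482 the lowest. The means of 5.25 ± 0.13 in CpG1826 tumors and 5.16 ± 0.15 in PBS tumors (SD, n = 5 each) gave a log2 fold change of 0.08 ± 0.09 (SE, 95% confidence interval -0.10 to 0.27, limma adjusted p = 0.720). The upper bound of that interval lies below the lower bound for Il15 (0.47). The mean value of Il7 ranked at the 24.2 percentile of genes and that of Lta at the 24.6 percentile, and at such dim levels an array can understate a fold change.

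Tnfsf13b, which encodes BAFF, was lower in every CpG1826 tumor. It measured 6.97, 6.70, 6.91, 6.61 and 6.91 in CpG1826 mice 50, 58, 183, 189 and 595, against 6.99, 7.25, 7.35, 7.56 and 7.33 in PBS mice 26, 29, 482, 592 and 661. The groups did not overlap by a narrow margin, CpG1826 mouse 50 lying just under PBS mouse 26. The means were 6.82 ± 0.15 in CpG1826 tumors and 7.29 ± 0.21 in PBS tumors (SD, n = 5 each), so that Tnfsf13b fell by 0.47 ± 0.10 (SE) on the log2 scale, a 1.39-fold lower level (1.19 to 1.62, limma adjusted p = 0.0175). With any 1 mouse left out it still passed, at limma adjusted p-values of 0.00575 to 0.0483 (0.0433 without PBS mouse 661). Among the 11 measured macrophage markers, Csf1r, the M-CSF receptor, was also lower (1.37-fold, 1.19 to 1.58, limma adjusted p = 0.0119), and 2 rose, Msr1 (a scavenger receptor, 1.58-fold, 1.38 to 1.81) and Fcgr1 (a high-affinity Fc receptor, 1.32-fold, 1.13 to 1.53). The Fcgr1 call was lost when CpG1826 mouse 58, 183 or 595 or PBS mouse 26, 29, 482 or 661 was left out (limma adjusted p = 0.0434 to 0.0982 across the 10 fits), so 1 macrophage marker then rose. Adgre1 (F4/80) and C1qa, a complement subunit, had log2 fold changes of 0.03 (-0.24 to 0.30) and -0.14 (-0.37 to 0.10). The macrophage marker score was 9.62 to 9.98 in CpG1826 tumors and 9.59 to 9.93 in PBS tumors. The part of macrophage number in the fall of Tnfsf13b was not tested.

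The receptors of BAFF and APRIL did not pass. Tnfrsf13b, which encodes TACI, measured 7.22, 7.22, 7.25, 7.13 and 7.11 in CpG1826 mice 50, 58, 183, 189 and 595, against 7.43, 7.42, 7.21, 7.22 and 7.12 in PBS mice 26, 29, 482, 592 and 661. The CpG1826 values lie inside the PBS range apart from mouse 595, just under the lowest PBS tumor. The log2 fold change was -0.10 ± 0.08 (SE, 95% confidence interval -0.26 to 0.07, limma adjusted p = 0.609). Tnfrsf13c (BAFF-R) and Tnfrsf17 (BCMA) had log2 fold changes of -0.04 (-0.29 to 0.22) and -0.07 (-0.34 to 0.20). Tnfrsf17 was dim, at the 23.4 percentile of genes. Of the 6 measured partner genes of BAFF and APRIL, 2 rose and 0 fell, with a median log2 fold change of 0.00. Furin, the protease that cleaves both ligands among many other proteins, rose 1.52-fold (1.33 to 1.73, limma adjusted p = 0.00104). Sdc1, a heparan sulfate proteoglycan that binds APRIL and is abundant on plasma cells and epithelia, rose 1.29-fold (1.12 to 1.47, limma adjusted p = 0.0355). The Sdc1 call was lost when any of 6 mice was left out, CpG1826 mouse 58, 183 or 595 or PBS mouse 26, 29 or 592 (limma adjusted p = 0.0197 to 0.0968 across the 10 fits), so the count of the list was then 1.

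Among markers of the B cells and plasma cells that carry these receptors, Spib and Prdm1 rose and 0 fell. Of 11 measured B cell markers, Spib, a transcription factor also expressed in plasmacytoid dendritic cells, rose 1.78-fold (1.38 to 2.28). Ms4a1 (CD20) averaged 4.28 ± 0.12 in CpG1826 tumors and 4.38 ± 0.15 in PBS tumors (SD, n = 5 each). Cd79a, a chain of the B cell receptor, averaged 3.84 ± 0.36 in CpG1826 tumors and 3.92 ± 0.24 in PBS tumors. The mean values of Ms4a1 and Cd79a ranked at the 12.6 and 7.9 percentiles of genes, dimmer than Il7 and Lta, so a change could be missed. The B cell score was 5.18 to 5.45 in CpG1826 tumors and 5.23 to 5.43 in PBS tumors. Of 6 plasma cell markers, Prdm1, the transcription factor BLIMP1, which T cells and myeloid cells also use, rose 1.39-fold (1.24 to 1.55), and the score was 6.21 to 6.33 in CpG1826 tumors and 6.13 to 6.32 in PBS tumors.

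The lymphotoxin genes Lta, Ltb and Ltbr did not pass by limma, and each estimate was under 0. Like Il7 and Tnfrsf13b, they also had an unadjusted limma p above 0.05. These 5 genes are what remained after the 3 called genes were set aside, so a count among them alone carries no meaning. Of all 8 measured genes, 3 had an unadjusted limma p under 0.05, against 3101 of all 19938 genes. Ltb came closest, with an unadjusted limma p of 0.0532. Lta measured 4.85, 5.25, 5.24, 5.37 and 5.10 in CpG1826 mice 50, 58, 183, 189 and 595, against 5.40, 5.29, 5.01, 5.35 and 5.42 in PBS mice 26, 29, 482, 592 and 661. CpG1826 mouse 50 was the lowest and the groups overlap, with a log2 fold change of -0.13 ± 0.10 (SE, 95% confidence interval -0.36 to 0.10, limma adjusted p = 0.623). Ltb, the membrane anchor of the complex, measured 6.76, 6.51, 6.94, 6.68 and 6.68 in CpG1826 mice 50, 58, 183, 189 and 595, against 6.93, 6.96, 6.97, 6.92 and 6.70 in PBS mice 26, 29, 482, 592 and 661. Here 4 PBS tumors lay close together and mouse 661 lay among the CpG1826 values, while CpG1826 mouse 183 lay among the PBS values. The log2 fold change of Ltb was -0.18 ± 0.08 (SE, 95% confidence interval -0.36 to 0.003, limma adjusted p = 0.331), and -0.23 without PBS mouse 661 (limma adjusted p = 0.209).

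Ltbr, the receptor of the complex, measured 8.60, 8.83, 8.67, 8.69 and 8.83 in CpG1826 mice 50, 58, 183, 189 and 595, against 8.72, 8.82, 8.79, 8.81 and 8.95 in PBS mice 26, 29, 482, 592 and 661. Its groups overlap, with CpG1826 mouse 50 the lowest and PBS mouse 661 the highest. The log2 fold change was -0.09 ± 0.07 (SE, 95% confidence interval -0.25 to 0.06, limma adjusted p = 0.594). Tnf lies between Ltb and Lta on chromosome 17 in the RefSeq gene order. Unlike its neighbours it passed the test, with values of 9.14 to 9.61 in CpG1826 tumors and 8.39 to 8.70 in PBS tumors (1.81-fold, 1.57 to 2.09, limma adjusted p = 0.000118). Whether the changes of these neighbours differ was not tested, and the interval of Tnf on the log2 scale (0.65 to 1.06) lies above those of Lta and Ltb.

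Among the receptors and ligands around lymphotoxin, 2 of 6 measured genes rose, Tnf and Tnfrsf1b, and 0 fell, with a median log2 fold change of 0.17. Tnfrsf1b, which encodes TNF receptor 2, rose 2.07-fold (1.73 to 2.48, limma adjusted p = 0.000133), and CpG1826 mouse 183 was the highest at 11.34, against 10.71 to 10.78 in the other 4 CpG1826 tumors. Tnfrsf1a, TNF receptor 1, had a log2 fold change of 0.05 (-0.09 to 0.18). Tnfsf14 (LIGHT, the other ligand of the lymphotoxin β receptor) and Tnfrsf14 (HVEM, its second receptor) had log2 fold changes of 0.08 (-0.10 to 0.27) and 0.05 (-0.15 to 0.24).

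In the noncanonical NF-κB relay, 3 of 6 measured genes rose and 0 fell, with a median log2 fold change of 0.20. Relb, the transcription factor at its end, rose 1.37-fold (1.21 to 1.55, limma adjusted p = 0.00590). Birc3, which encodes the ubiquitin ligase cIAP2, rose 1.40-fold (1.19 to 1.64, limma adjusted p = 0.0203), a call lost without CpG1826 mouse 183 or PBS mouse 29 or 482 (limma adjusted p = 0.0128 to 0.0592 across the 10 fits). Nfkb2, the precursor of p52, rose 1.16-fold (1.07 to 1.27, limma adjusted p = 0.0497), close to the threshold, and its call was lost when any CpG1826 mouse or PBS mouse 29, 482, 592 or 661 was left out (limma adjusted p = 0.0320 to 0.128) and under a further quantile normalization (0.114). Relb, Birc3 and Nfkb2 are also targets of canonical NF-κB. Map3k14, the kinase NIK that the lymphotoxin β receptor and BAFF-R act through, had a log2 fold change of -0.10 ± 0.07 (SE, limma adjusted p = 0.578). Without CpG1826 mouse 183 or PBS mouse 29 or 482, the count of the list was 1.

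Of 8 measured stromal genes that depend on lymphotoxin in lymphoid tissue, 4 rose and 0 fell, with a median log2 fold change of 0.17. Cxcl13, the B cell attractant, measured 5.79 to 6.61 (median 6.06) in CpG1826 tumors and 4.88 to 5.41 (median 5.25) in PBS tumors, and rose 1.91-fold (1.51 to 2.40, limma adjusted p = 0.00268). Ccl19, a ligand of CCR7, rose 1.69-fold (1.39 to 2.04, limma adjusted p = 0.00349); it has 5 probes, with log2 fold changes of 0.60 to 0.82, and near-identical copies of the gene make its identity uncertain. Vcam1 and Icam1, adhesion molecules of activated endothelium and stroma and also targets of TNF, rose 1.46-fold (1.28 to 1.68) and 1.29-fold (1.15 to 1.45). Of 10 other TNF superfamily ligands, Tnfsf9, the 4-1BB ligand, rose 1.93-fold (1.65 to 2.25) and 0 fell; the median over the list was 0.01 on the log2 scale. The number that fell was 1 without CpG1826 mouse 58, 189 or 595.

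**Figure D2:**
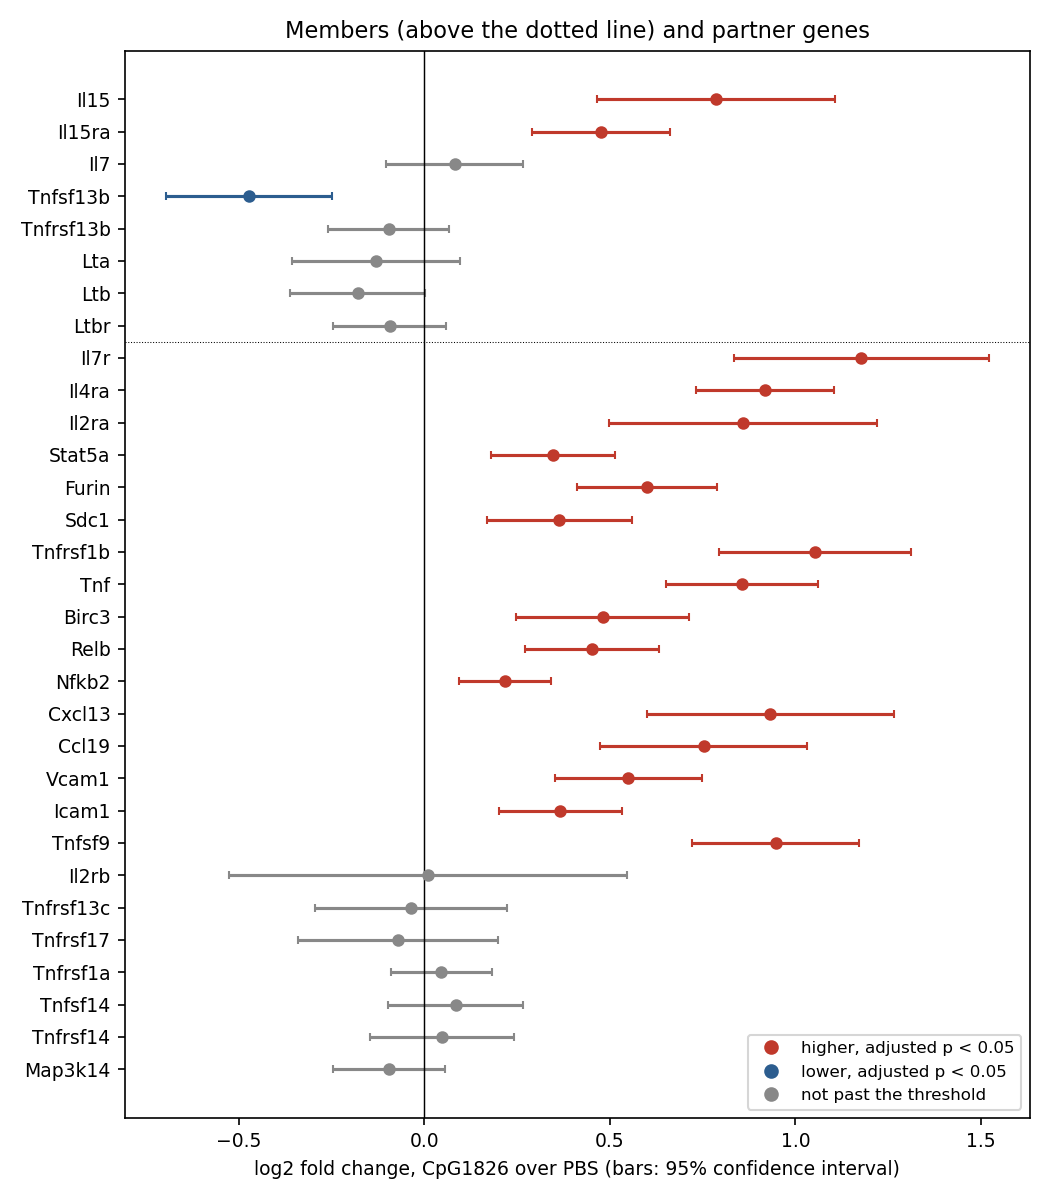
Log2 fold change of CpG1826 over PBS (x axis) with its 95% confidence interval for the 8 genes, above the dotted line, and for partner genes, below it; colour marks genes past an adjusted p of 0.05. Il15 (0.79) and Il15ra (0.48) lie right of 0 and Tnfsf13b (-0.47) left of it, and Il7r (1.18) lies farthest right.

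The gap between Il15 and each of 4 other survival factors was taken in each tumor, and it was larger in CpG1826 tumors. These gaps are log2 values of 2 probes of unequal brightness, so only their shift between groups carries meaning, and they are given with no test. The gap between Il15 and Tnfsf13b was 0.83 to 1.63 in CpG1826 tumors and -0.44 to 0.34 in PBS tumors, a shift of 1.26 on the log2 scale or 2.39-fold. The gap between Il15 and Il7 was 2.60 to 3.16 in CpG1826 tumors and 1.78 to 2.54 in PBS tumors, a shift of 0.71. Against Lta the gap was 2.84 to 3.26 in CpG1826 tumors and 1.47 to 2.53 in PBS tumors, a shift of 0.92. Against Ltb it was 1.04 to 1.68 in CpG1826 tumors and 0.13 to 0.68 in PBS tumors, a shift of 0.97. In each of the 4 gaps the groups did not overlap. All 4 gaps use Il15, whose own groups did not overlap. Each shift restates the fold changes given above, so the gaps are not separate results.

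**Figure D3:**
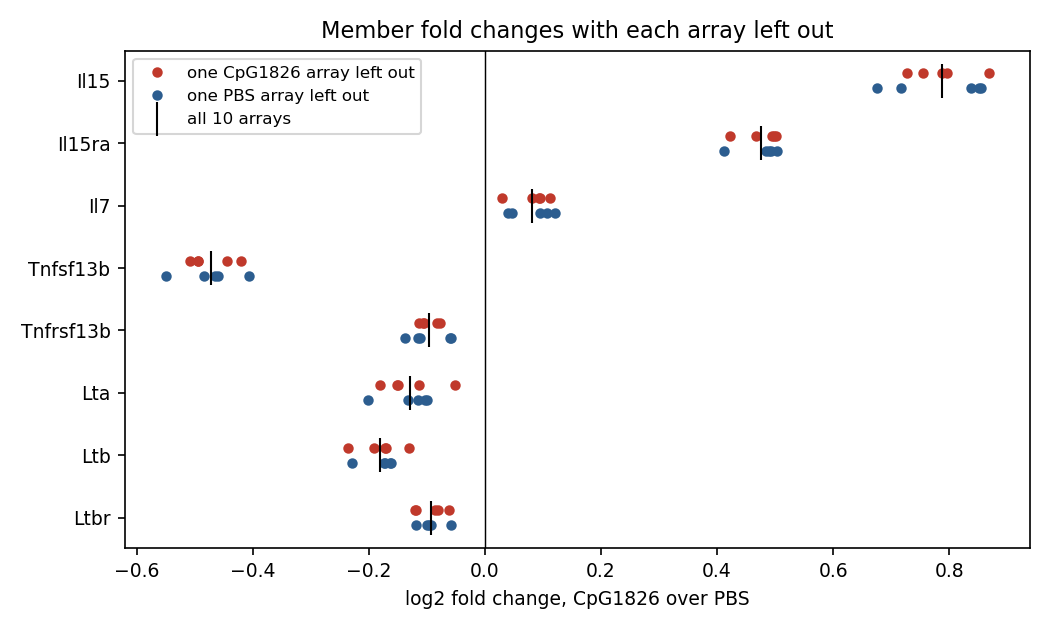
Log2 fold change of CpG1826 over PBS (x axis) of each gene in the fit of all 10 arrays (black tick) and with 1 CpG1826 array (red) or 1 PBS array (blue) left out. The estimates of Il15 stay between 0.67 and 0.87, those of Il15ra between 0.41 and 0.50 and those of Tnfsf13b between -0.55 and -0.41.

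The genes whose profile over the 10 arrays was most like that of Il15 were found by the root mean square difference between log2 values centred on each gene's mean. Nearest were Slfn8, a Schlafen family gene with close paralogs (0.11), Gm8995, a predicted gene (0.14), Ubd, the ubiquitin-like protein FAT10 (0.16), Gbp5, a guanylate-binding protein (0.16), and Heatr9 (0.16). In all 5 the groups did not overlap and CpG1826 tumors were higher, by 0.65 to 1.04 on the log2 scale. Nearest to Il15ra were Msrb1, a methionine sulfoxide reductase (0.07), Vcam1 (0.07), Lcp1, the actin-bundling protein L-plastin (0.07), Rapgef2 (0.08) and Traf1, a TNF receptor adaptor (0.09), higher in CpG1826 tumors by 0.42 to 0.55 on the log2 scale. Nearest to Tnfsf13b were Haao, an enzyme of the kynurenine pathway (0.12), Mmd (0.13), Plcg2, a phospholipase of B cell and myeloid receptors (0.13), Nlrc3 (0.13) and Tcf19 (0.14), of which Haao and Tcf19 fell and the other 3 did not pass. These genes were picked as the closest among 19938 over the same 10 arrays, so closeness itself was not tested. A group difference like that of Il15, Il15ra or Tnfsf13b follows largely from this choice and is not a separate result.

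Marker scores of keratinocytes and neutrophils were higher in CpG1826 tumors, as were Il15 and Il15ra, while Tnfsf13b was lower. These are differences between the groups, and whether the scores follow these genes from tumor to tumor was not tested. Among the 16 keratinocyte markers with a probe, 11 rose and none is among the genes that fell. Krt5, a keratin of basal epidermis, was 7.75-fold higher (4.97 to 12.1), and Krt14, its partner in the filament, 6.05-fold (4.09 to 8.94). Krt1, of the layers above, was 8.35-fold higher (5.33 to 13.1). Keratinocytes can make IL-15 and IL-7, and the part of skin in the rise of Il15 and Il15ra was not tested.

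Of 10 measured neutrophil markers 6 rose and 0 fell. S100a8, a subunit of the neutrophil protein calprotectin, was 4.37-fold higher (3.11 to 6.13). Its partner S100a9 was 2.74-fold higher (2.09 to 3.58), and Cxcr2, the neutrophil chemokine receptor, 3.11-fold (2.36 to 4.10). The part of neutrophils in the changes of Il15, Il15ra and Tnfsf13b was not tested.

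Markers of NK and T cells, which IL-15 and IL-7 serve, held no calls. Of 11 NK cell markers 0 passed by limma and 1 had an unadjusted p under 0.05, higher. For this and the fibroblast count below, 3101 of all 19938 genes had an unadjusted limma p under 0.05. The NK cell score was 5.49 to 6.50 in CpG1826 tumors and 5.54 to 6.42 in PBS tumors. Ncr1, the NK receptor NKp46, ranged from 5.12 to 7.37 in CpG1826 tumors and from 5.73 to 7.06 in PBS tumors, a spread wider than its log2 fold change of -0.22 ± 0.34 (SE). Klrb1c (NK1.1) and Cd8a had log2 fold changes of -0.34 ± 0.16 and -0.29 ± 0.18 (SE). The T cell score was 6.64 to 7.20 in CpG1826 tumors and 6.72 to 7.40 in PBS tumors. Of 11 dendritic cell markers, Ccr7, the lymph node homing receptor, rose 1.69-fold (1.36 to 2.09) and 0 fell, with scores of 6.18 to 6.38 in CpG1826 tumors and 6.25 to 6.39 in PBS tumors. Of 10 fibroblast markers 0 passed by limma and 2 had an unadjusted p under 0.05, both lower, with scores of 9.57 to 10.10 in CpG1826 tumors and 9.94 to 10.04 in PBS tumors. Of 10 endothelial markers Tek, the angiopoietin receptor, fell by 0.34 on the log2 scale (limma adjusted p = 0.0488) and 0 rose, a call that held only without PBS mouse 29 or 592 when 1 mouse was left out (limma adjusted p = 0.0390 to 0.117).

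**Figure D4:**
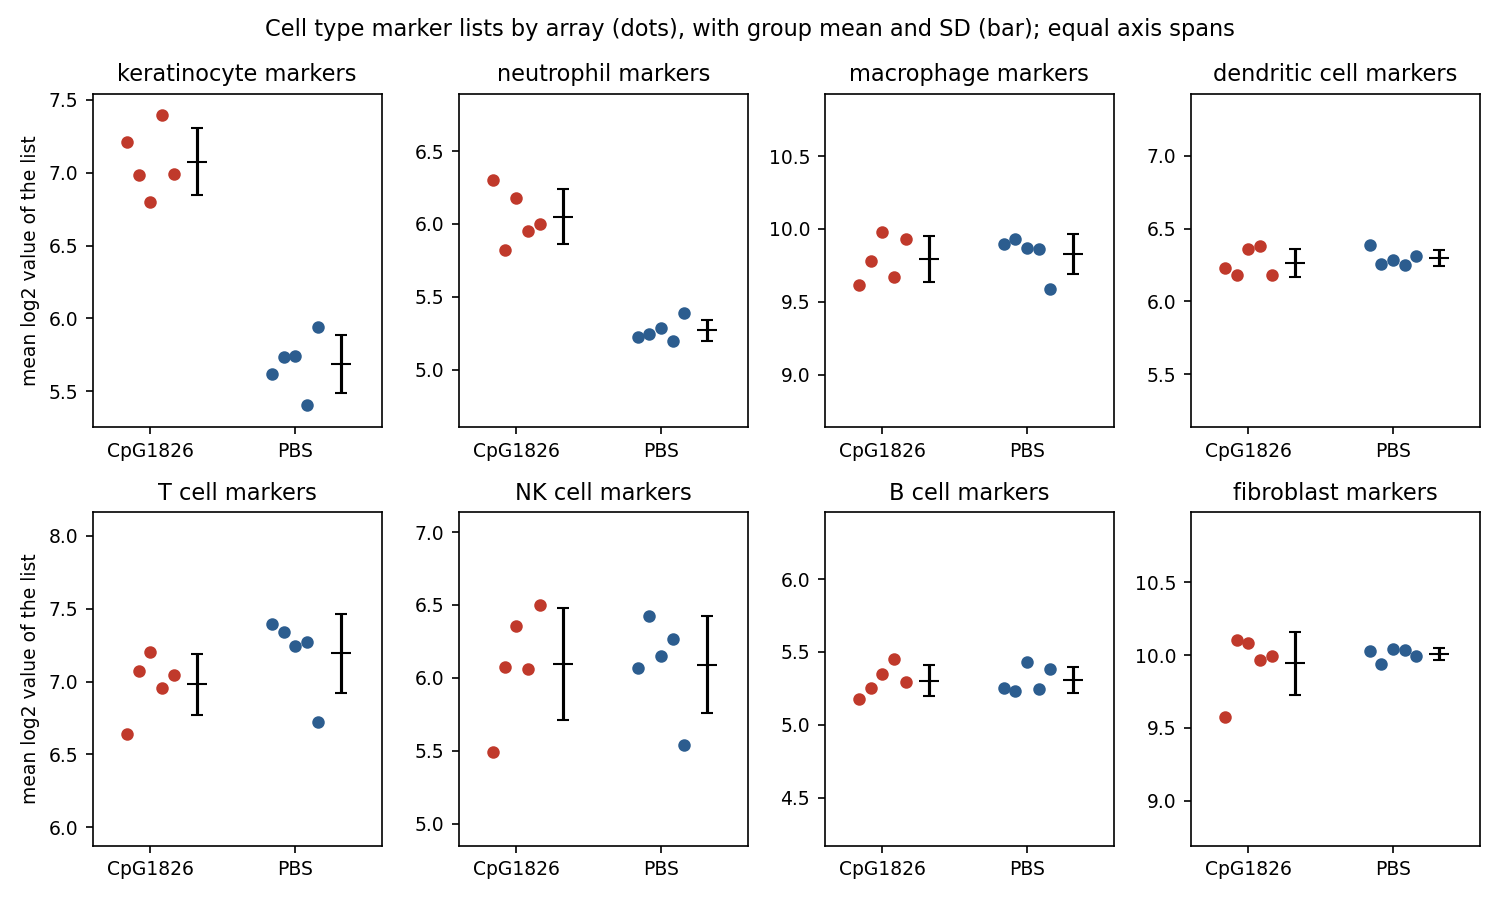
Mean log2 value of 8 of the 10 cell type marker lists (y axis, equal span in each panel; plasma cell and endothelial markers are not drawn) in every array, with CpG1826 tumors (red) left of PBS tumors (blue); bars give the mean and SD of 5 arrays. Keratinocyte and neutrophil scores do not overlap between the groups, and the other 6 lists drawn overlap.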

How the data were processed

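Total RNA of 10 tumors was labelled with a whole-transcript kit for Affymetrix arrays, per the labels' protocols. The authors deposited 1 log2 value per probe and array; the base was read from the range of the values (2.03 to 14.70). R 2.7.1 and limma stand in the submitters' processing notes without a stated role. For background correction and probe summarization, the method was not given in the sources used here. No detection calls were used, and precision is limited by the 5 arrays a group.

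Of 35512 probes, 21789 carried 1 gene symbol in the platform annotation, 1621 several and 12102 none; 21698 of the first kind matched a gene number in RefSeq (GRCm38.p6), used for names, gene order and promoter windows. The brightest probe stood for each of 19938 genes, and the 8 measured members have 1 probe each. Genes were fitted with lmFit and eBayes (limma 3.58.1, R 4.3.3, two-sided, 10 arrays, no covariate). The fit was tested on simulated data with the level and spread of each of the 19938 genes and independent normal noise. It recovered 75 of 100 shifts of 0.5 (log2) and 99 of 100 shifts of 1, with 5 unchanged genes among 179 calls. The simulation held no difference shared by many genes of a tumor, such as that of PBS mouse 661. These shares are therefore not the power of the real comparison. Each title carries its own mouse number, taken as a separate animal. The p-values weigh the group difference of a gene against its spread between these animals, moderated by the spread over all genes.

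The members and the 16 gene lists were chosen with earlier results of these data known. Named genes were the members, up to 4 called genes of each pathway list, up to 3 of each cell type list, a fixed set of receptors and markers, and the 5 genes most like Il15, Il15ra and Tnfsf13b; the colon epithelial genes were added after the data were seen. The alternatives were quantile normalization, median centring, a filter on dim genes, array weights, a robust prior with a trend, averaged probes, single probes, and each mouse left out in turn.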

Additional observations from a re-analysis of the deposited data

Results flagged for a closer look

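In each group of 5 arrays, the highest and the lowest tumor were examined. A tumor was marked when its gap to the next one took up more than 0.71 of the group's range. Of 164 groups, 20 were marked. Chance alone marks about 1 in 20 independent groups, but these groups share the same 10 arrays. Genes picked as most like Il15, Il15ra or Tnfsf13b also repeat their profiles, so the 20 marks cannot be set against that rate. Of these 20, 10 concern PBS mouse 661, which was far below the other PBS tumors for Il15ra (8.87, against 9.16 to 9.23), Ltb (6.70, against 6.92 to 6.97), Il2rb (7.77, against 8.61 to 8.86), Vcam1 (10.91, against 11.20 to 11.26) and Tnfsf9 (6.22, against 6.38 to 6.44). The same tumor was low for Ncr1 (5.73, against 6.71 to 7.06), Cd8a (7.76, against 8.44 to 8.63) and Msrb1 (9.33, against 9.50 to 9.57). Its T cell score (6.72, against 7.24 to 7.40) and macrophage score (9.59, against 9.86 to 9.93) were low as well. Msrb1 was picked for a profile like that of Il15ra, so its low value is not a separate result.

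PBS mouse 26 was far below the other PBS tumors for Stat5a (8.12, against 8.34 to 8.42), Haao (6.92, against 7.03 to 7.06), Mmd (7.96, against 8.35 to 8.49) and Plcg2 (8.22, against 8.47 to 8.54), and above them for Ccr7 (7.51, against 6.68 to 6.92). CpG1826 mouse 183 was above the other CpG1826 tumors for Tnfrsf1b (11.34, against 10.71 to 10.78) and Fcgr1 (11.18, against 10.74 to 10.86). CpG1826 mouse 50 was above them for S100a9 (8.01, against 7.02 to 7.26) and below them for Gbp5 (9.74, against 10.05 to 10.16) and the fibroblast score (9.57, against 9.97 to 10.10). Haao, Mmd and Plcg2 were picked for profiles like that of Tnfsf13b, whose lowest PBS tumor was also mouse 26. Their gaps are not separate results. The reason for any of the gaps was not tested.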

How the results depend on the processing

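Il15 and Il15ra rose and Tnfsf13b fell under each alternative listed in the processing section. The other 5 survival genes kept their direction and did not pass wherever they were tested, but the filter on dim genes left out 3 of them, Il7, Lta and Ltb, so that it says nothing about those. With 1 mouse left out the log2 fold change was 0.67 to 0.87 for Il15, 0.41 to 0.50 for Il15ra and -0.55 to -0.41 for Tnfsf13b. Genes called lower over the whole array numbered 364 after a further quantile normalization, 338 among genes above the median level and 121 to 209 with 1 mouse left out, against 220. With genes below the median level left out, fewer genes were tested: the median log2 fold change was 0.16 for the common γ chain partners, 0.45 for the lymphotoxin and LIGHT partners, 0.46 for the stromal genes and 0.26 for the other TNF ligands. The number higher was then 4 for keratinocyte, 1 for neutrophil and NK cell markers, and 0 for B cell markers and other TNF ligands. Endothelial markers called lower numbered 0 there and with the trended prior. Fibroblast markers called lower numbered 1 there, with array weights, the quantile step and the trended prior, and NK cell markers called higher 1 with array weights. With 1 mouse left out, genes called higher numbered 1 to 2 for BAFF and APRIL partners and macrophage markers, 1 to 3 for the NF-κB relay, and 0 to 1 for NK cell, fibroblast and endothelial markers. Genes called lower then numbered 0 to 1 for other TNF ligands and for dendritic cell, fibroblast and endothelial markers. Among genes that did not pass, the log2 fold change changed sign with 1 mouse left out for Il2rb (-0.18 to 0.22, and -0.010 after the quantile step), Tnfrsf13c (-0.099 to 0.065), Tnfrsf14 (-0.0024 to 0.11), Cd79a (-0.21 to 0.0052), Ncr1 (-0.47 to 0.10) and Adgre1 (-0.066 to 0.084). Where a count or sign moved by any other step than fewer genes or mice, the cause was not tested. Of 912 values for 58 other named genes, 854 kept direction and call. No paired analysis was possible because the mouse numbers in the titles differ between the groups. Dim probes, among them those of Il7, Lta, Tnfrsf17, Ms4a1, Cd79a and Klrb1c, limit what the arrays can show.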
